A study of Mus musculus with 6 samples.

Results

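The genes that make, conjugate and move bile acids were followed in mouse liver, as a set of 30 genes chosen by symbol. All 30 had a row among the 24982 genes counted in each of 6 libraries of liver polyA RNA. The animals were male C57BL/6NJ mice, an inbred strain. One group ate chow and the other a high fat diet plus sugar water (high fat high sugar, HFHS), each for 54 weeks and with 3 libraries. The series presents the second diet as a model in which fatty, inflamed liver goes on to liver cancer. The labels give neither the animals' ages, nor the composition of the diet or the sugar, nor whether tumour tissue was in the sampled piece. They do not say that each library came from its own mouse, so each p-value reflects only how far these libraries differ, which may be technical.

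Hepatocytes turn cholesterol into bile acids by a classic pathway, which Cyp7a1 opens, and by an alternative pathway, in which Cyp27a1 and Cyp7b1 act. Both pathways share enzymes that rework the steroid ring and shorten the side chain, after which the acid is joined to taurine or glycine and pumped into bile. Most of the bile acids return from the gut in portal blood, are taken up again by hepatocyte carriers, and hold synthesis down through the nuclear receptor FXR and through a gut hormone read by Fgfr4 and its partner Klb.

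Of the 30 genes, 29 had counts and passed the filter on low counts, and 2 of them fell on the HFHS diet: the sinusoidal carrier Slco1a4 and the receptor Fgfr4 (edgeR's quasi-likelihood test, p-values adjusted by Benjamini-Hochberg, threshold 0.05). Across all 12949 tested genes 3.61% were called lower and 11.0% higher, 14.6% in all, so about 1 lower call would be met among 29 genes at that share. edgeR, DESeq2 and limma-voom called 0 of the 29 higher, where DESeq2 called 14.0% and limma-voom 7.66% of all genes higher. DESeq2 called 6 of the 29 lower, against 7.52% of all genes, and limma-voom 2, against 2.86%. At an unadjusted p under 0.05, edgeR had 1 higher and 7 lower, against 19.5% and 12.8% of all tested genes. Fold changes lay below 0 for 24 of the 29, against 52.3% of all tested genes, with a median log2 fold change of -0.31 beside -0.02 over all tested genes. Scaling to library size only moved the median of all genes up by 0.27 on the log2 scale. It left 18 of the 29 below 0, where 2991 of all 12949 genes were, with medians of -0.11 for the 29 and 0.25 for all genes. With that scaling 1 of the 29 was called lower and 1 higher (1.54% and 14.9% of all genes). Among the 29, lower calls numbered 1, 1 and 0 without chow replicate 1, 2 or 3, against 1.33%, 0.850% and 0.0150% of all genes. They came to 2, 4 and 3 without HFHS replicate 1, 2 or 3, against 2.23%, 3.01% and 5.83%. Without the low-count filter 3 were lower (2.83% of all genes), and with the replicate number as a block 1 was lower and 1 higher (2.18% and 7.42%). All 3 HFHS libraries lay below all 3 chow libraries for 10 of the 29 and above them for 1, shares to be read against 18.0% and 21.5% of all tested genes. All 13 tested genes of synthesis and conjugation had a fold change below 0 (10 with library size only), and 9 of the 14 tested carriers did (7 with library size only).

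**Figure D1:**
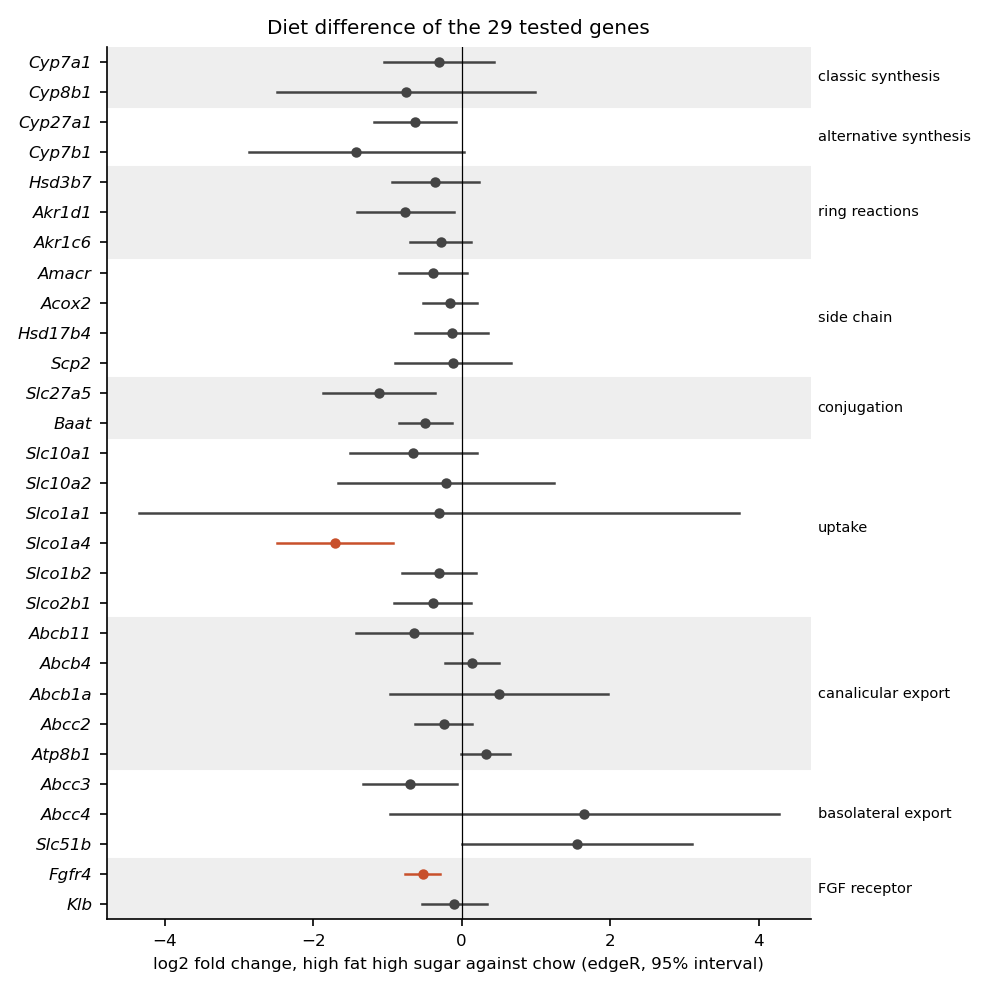
Log2 fold change of each of the 29 tested genes, HFHS against chow, with the 95% interval of the edgeR fit, grouped by role. The genes past the threshold, Slco1a4 and Fgfr4, are in orange, and most of the other intervals cross 0.

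The libraries held 16565335 to 20585366 gene counts. HFHS replicate 2 stood apart: it had the lowest of the 6 values for 15 of the 29 genes, against 1 to 5 in each other library. The median of its 29 log2 levels lay -0.45 from the genes' 6-library means, and the other HFHS libraries lay at -0.11 and -0.04. These levels include the TMM scaling factor, which was 1.26 in HFHS replicate 2 and 0.897 to 1.02 in the other libraries. A larger factor lowers every level of its library, and its part in the low values was not tested. For the 29 genes and their ratios, results whose sign or call turned on that library are given with and without it. Of 10 hepatocyte markers 9 had a fold change below 0 and 1, Serpina1c, fell, against 52.3% and 3.61% of all tested genes. Their median log2 fold change was -0.48. With library size only 7 of the 10 were below 0, where 2991 of all 12949 genes were, with a median of -0.22. The summed level of those 10 was 126762, 117892 and 138394 CPM (read counts brought to a common library size with TMM factors) in chow replicates 1, 2 and 3 and 115661, 62276 and 94897 in HFHS replicates 1, 2 and 3. Markers of other cells rose in most cases: 6 of 8 cholangiocyte, 6 of 8 macrophage (with Marco lower), 5 of 8 endothelial and 7 of 8 stellate cell markers, where 11.0% of all tested genes did. In the same order 3, 3, 4 and 3 were called higher without chow replicate 2, where 345 of 13291 genes were. Without chow replicate 3 the count was 0 in each list, where 4 of all genes were called higher. Without HFHS replicate 2 the counts were 5, 6, 6 and 7, where 1226 of 13008 genes were called higher, and Marco was not called. The summed levels of these markers went from 26.9-45.4 CPM in chow to 176-294 for cholangiocytes, from 214-304 to 626-1012 for macrophages, from 195-233 to 298-368 for endothelium and from 184-238 to 498-927 for stellate cells. Most of the cholangiocyte sum was Spp1. The duct gene Cftr was at 0 in chow replicates 1 and 2. In bulk liver, fewer hepatocytes and less RNA per hepatocyte cannot be told apart, and the part of cell make-up in the values below was not tested.

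**Figure D2:**
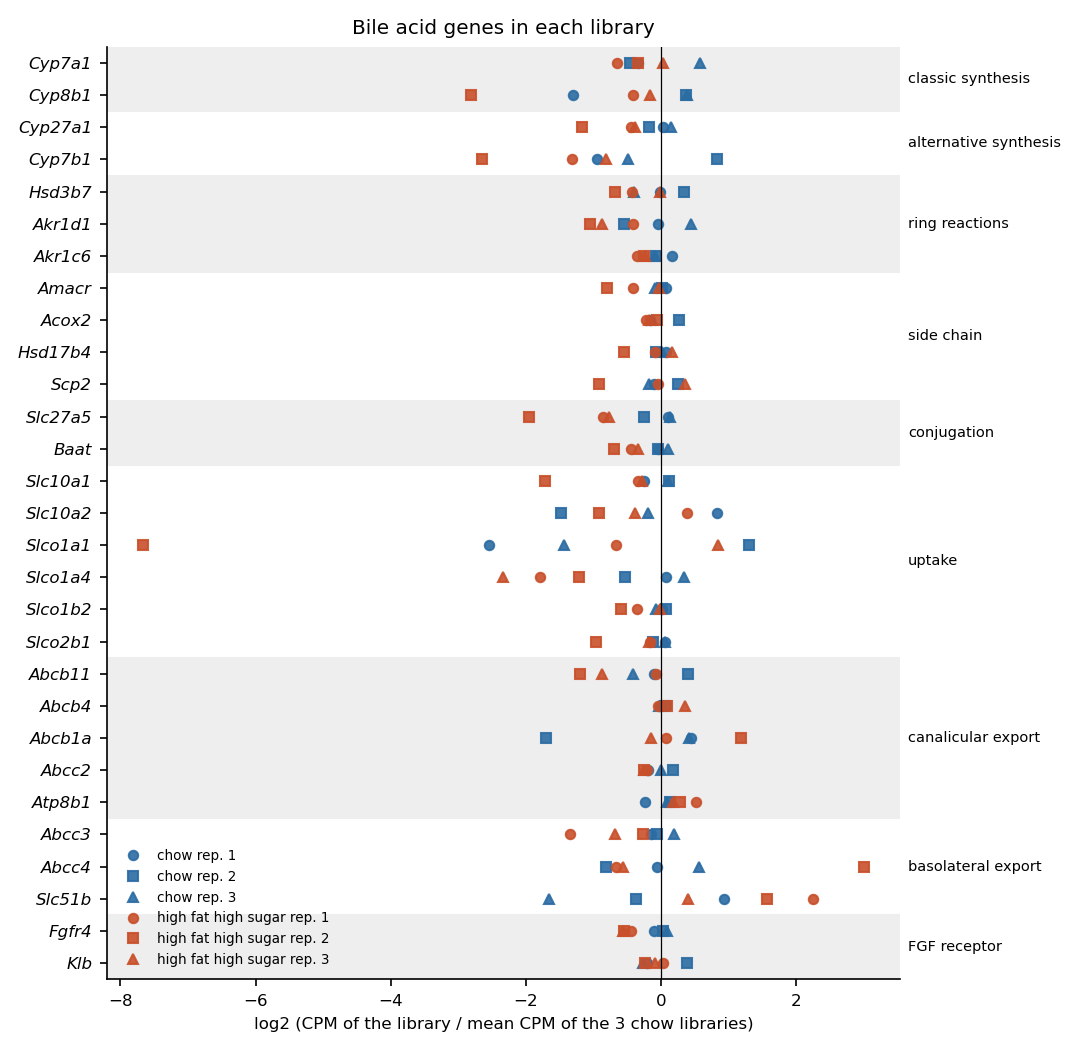
CPM of each gene in each library, divided by the mean of the 3 chow libraries, on a log2 scale. Blue marks chow and orange HFHS; circles, squares and triangles are replicates 1, 2 and 3. The orange squares, HFHS replicate 2, are the lowest points for 15 genes, with Slco1a1 far to the left.

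Levels of different genes were compared per kilobase of exon, using exon lengths of GENCODE M21. In chow the highest were Scp2, a sterol carrier and thiolase of peroxisomes, at 1086 ± 179 CPM per kilobase (SD, n = 3), and Akr1c6, a hydroxysteroid dehydrogenase, at 1015 ± 102, which did not differ beyond their spread. The ligase Slc27a5 followed at 646 ± 90.5 and the carrier Slco1b2 at 617 ± 30.3, also within each other's spread. The main sodium-dependent carrier Slc10a1 was at 408 ± 57.7 and Cyp27a1 at 308 ± 35.1. Cyp7a1, at 92.7 ± 39.6, and Abcb11, the pump that moves bile salts into bile, at 129 ± 37.6, lay in the middle of the range. The lowest with counts were the basolateral pump Abcc4 at 0.999 ± 0.453 and Slc51b, a subunit of a basolateral carrier, at 0.903 ± 0.742. Slc51a, the other subunit of that carrier, had 0 counts in all 6 libraries, where 3 counts, taken as the floor, come to 0.146 to 0.181 CPM. Its exons share 567 bases with Pcyt1a on the other strand, and how reads there were assigned is not known here.

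**Figure D3:**
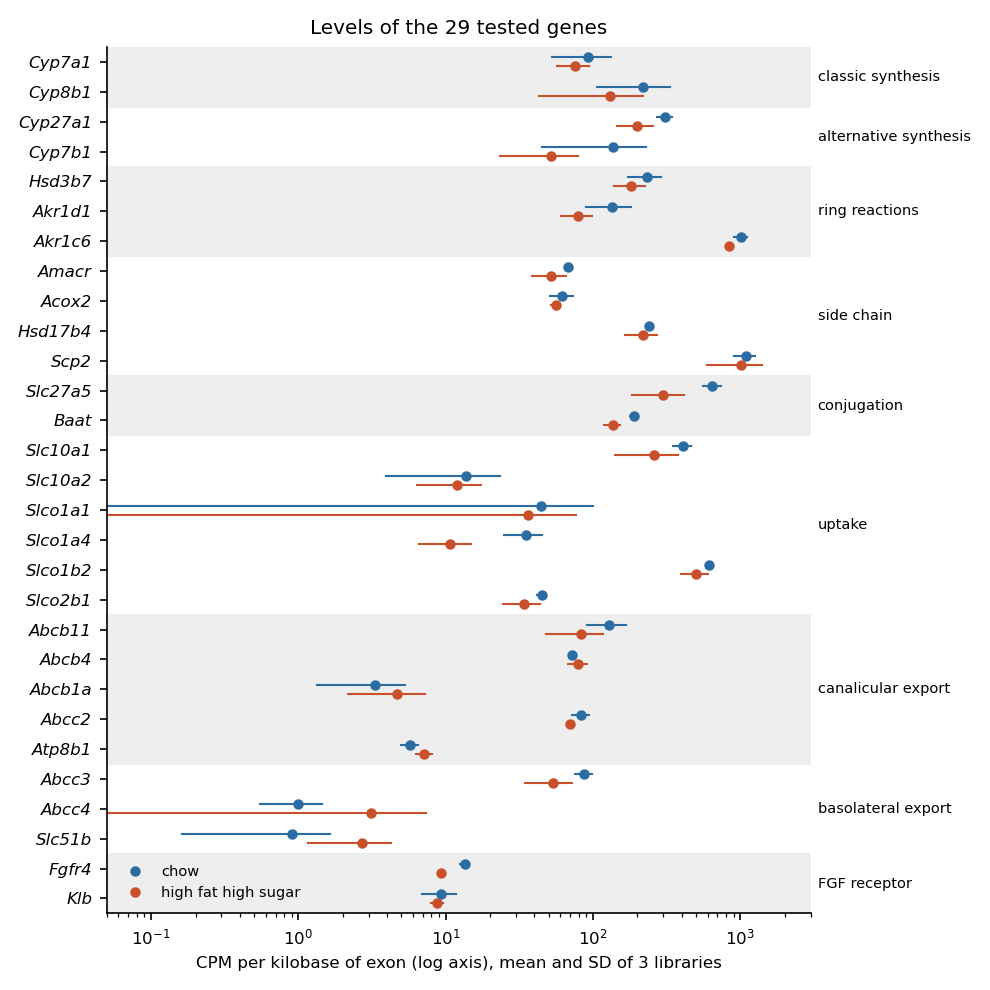
Mean level of each tested gene in CPM per kilobase of exon on a log axis, with the SD of 3 libraries, in chow (blue) and HFHS (orange). Levels run from Scp2 and Akr1c6 near the top of the axis to Abcc4 and Slc51b near its foot; bars that would pass below the axis end at its edge.

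In the classic pathway neither gene passed the test. Cyp7a1, the rate-limiting enzyme (chromosome 4, 6265612 to 6275632 in GRCm38), was at 303, 279.8 and 577 CPM in chow replicates 1, 2 and 3 and at 245, 304 and 394 CPM in HFHS replicates 1, 2 and 3. The groups overlapped, and the highest value was that of chow replicate 3. On the log2 scale the fold change was -0.30 ± 0.32 (SE), with a 95% interval of -1.04 to 0.44 (edgeR, Benjamini-Hochberg adjusted p = 0.554). Cyp8b1, the 12-alpha hydroxylase that sets the share of cholic acid (chromosome 9, 121914356 to 121916305), was at 173, 551 and 556 CPM in chow and 320.1, 60.4 and 382 CPM on the HFHS diet. Low values occurred in both groups, in chow replicate 1 and, lower still, in HFHS replicate 2. Its fold change was -0.75 ± 0.72 (SE) on the log2 scale and -0.28 without HFHS replicate 2. The ratio of Cyp8b1 to Cyp7a1 RNA sets the 12-alpha hydroxylase against the enzyme that opens the pathway within each library. It does not depend on scaling. It was 0.572, 1.97 and 0.964 in chow and 1.31, 0.199 and 0.968 in the HFHS group, and the mean log2 ratio differed by -0.70 (2-sided exact permutation p = 0.7, n = 3 per group, smallest possible p = 0.1, adjusted p = 0.933 over 7 ratios). That difference was 0.13 without HFHS replicate 2, which alone had the ratio below 0.5.

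In the alternative pathway Cyp27a1, the mitochondrial sterol 27-hydroxylase (chromosome 1, 74713148 to 74737897), was at 592, 513 and 644 CPM in chow and at 425, 259 and 447 CPM in the HFHS group. All 3 HFHS values lay below all 3 chow values. The log2 fold change of -0.63 ± 0.24 (SE) did not pass with edgeR (Benjamini-Hochberg adjusted p = 0.112) and passed with DESeq2 (adjusted p = 0.033). Cyp7b1, the oxysterol 7-alpha hydroxylase, which male mice express more than females (chromosome 3, 18071944 to 18243890), was at 155, 527 and 211 CPM in chow and 119, 47.2 and 169 CPM on the HFHS diet. Chow replicate 2 was 3.40-fold the lowest chow library, and HFHS replicate 3 lay above chow replicate 1. Its log2 fold change was -1.42 ± 0.60 (SE; edgeR, Benjamini-Hochberg adjusted p = 0.162), -0.72 without chow replicate 2 and -1.05 without HFHS replicate 2. The ratio of Cyp7b1 to Cyp27a1 was 0.262, 1.03 and 0.328 in chow and 0.279, 0.182 and 0.377 on the HFHS diet (2-sided exact permutation p = 0.5, n = 3 per group, adjusted p = 0.933). Chow replicate 2 was thus the only library in which the counts of the 2 enzymes were near equal.

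Of the 7 ring and side chain genes 0 passed with edgeR, and 1 had an unadjusted p under 0.05. Akr1d1, the reductase that gives the ring its bent shape, was at 350.4, 249 and 491 CPM in chow and 273, 175 and 197 CPM in the HFHS group, with 1 chow library inside the range of the other diet. Its log2 fold change was -0.76 ± 0.28 (SE; edgeR, Benjamini-Hochberg adjusted p = 0.107; DESeq2, adjusted p = 0.034). Hsd3b7, the 3-beta dehydrogenase of the ring, was at 455, 582 and 349 CPM in chow and 341, 288 and 457 CPM on the HFHS diet, which overlapped. In GENCODE M21 a second gene model, Gm49388, covers 1665 of its 1987 exon bases on the same strand, and the authors' counting rule for such reads was not given in the sources used here. Akr1c6 was at 1581, 1339 and 1329 CPM in chow and 1104, 1182 and 1204 CPM on the HFHS diet, a log2 fold change of -0.28 ± 0.18 (SE) that was -0.012 with library size only. The peroxisomal genes of side chain shortening were the racemase Amacr (-0.38 on the log2 scale), the oxidase Acox2 (-0.15), the bifunctional enzyme Hsd17b4 (-0.13) and Scp2 (-0.11). Amacr was at 184, 177 and 165 CPM in chow and 132, 101 and 172 CPM on the HFHS diet, and Acox2 at 164, 219.9 and 166 and 156, 176 and 162 CPM. Hsd17b4 was at 672, 609 and 647 CPM in chow and 603, 438 and 716 CPM on the HFHS diet, and Scp2 at 2668, 3419 and 2545 and 2797, 1518 and 3659 CPM. Without HFHS replicate 2, the lowest for Scp2, the log2 fold changes of Scp2 and Hsd17b4 turned to 0.17 and 0.046. None of these 4 passed with edgeR, DESeq2 or limma-voom, and all 4 had overlapping diets. Amacr passed without HFHS replicate 3 (-0.60, edgeR, Benjamini-Hochberg adjusted p = 0.0498). With library size only the signs of Acox2, Hsd17b4 and Scp2 turned positive. Copies of Scp2 sequence occur elsewhere, since 41.3% of its 50-base transcript windows are also found in the pseudogene Scp2-ps2, so its count is uncertain.

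Both conjugation genes had lower levels in every HFHS library than in any chow library. Slc27a5, the ligase that activates bile acids with coenzyme A before conjugation (chromosome 7, 12988346 to 12998192), was at 1605, 1263 and 1647 CPM in chow and 829.6, 386 and 879 CPM on the HFHS diet. The highest HFHS value was well below the lowest chow value, and replicate 2 was the lowest of its group. This gave a log2 fold change of -1.11 ± 0.32 (SE), a fold of 0.464, which missed the threshold (edgeR, Benjamini-Hochberg adjusted p = 0.0588). It passed with DESeq2 (adjusted p = 0.0021), with library size only (edgeR, Benjamini-Hochberg adjusted p = 0.0442), with no low-count filter (0.0449), and without HFHS replicate 2, where it was -0.81 ± 0.17 (0.0219). It did not pass with limma-voom (adjusted p = 0.0646). With edgeR it also missed under RLE scaling (Benjamini-Hochberg adjusted p = 0.0548), upper-quartile scaling (0.0641) and no robust estimation (0.06). The same held without each library other than HFHS replicate 2 (edgeR, Benjamini-Hochberg adjusted p = 0.0533 to 0.17). Baat, the transferase that adds taurine or glycine (chromosome 4, 49489416 to 49507915), was at 356, 359 and 395 CPM in chow and 272, 228 and 291 CPM on the HFHS diet, with a small spread inside each group. Its log2 fold change was -0.49 ± 0.15 (SE; edgeR, Benjamini-Hochberg adjusted p = 0.0721; DESeq2, adjusted p = 0.00497). Within libraries the ratio of Baat to Slc27a5 was 0.222, 0.284 and 0.240 in chow and 0.328, 0.590 and 0.331 on the HFHS diet, higher in all 3 of the latter. The difference in the mean log2 ratio was 0.70 (2-sided exact permutation p = 0.1, the smallest that 3 against 3 can give, n = 3 per group, adjusted p = 0.7 over 7 ratios) and 0.42 without HFHS replicate 2.

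The sinusoidal carriers differed from each other in how far they varied. Slco1a1, Slco1a4 and Slco1b2 encode organic anion carriers of the hepatocyte's blood side and lie within a single cluster on chromosome 6 (Slco1b2 at 141629452 to 141686646, Slco1a4 at 141805438 to 141856284, Slco1a1 at 141907281 to 141946962, GRCm38). Their 250 bases before a RefSeq transcript start (GRCm38.p6) are shown because the 3 neighbours behaved so differently, with that of Fgfr4, the other gene past the threshold. The windows are chr6:141629268-141629517 on the plus strand for Slco1b2, chr6:141856221-141856470 on the minus strand for Slco1a4, chr6:141946963-141947212 on the minus strand for Slco1a1 and chr13:55152568-55152817 on the plus strand for Fgfr4. The transcript starts of Slco1b2 and Slco1a4 used here lie inside the gene spans, so that 66 and 64 of the 250 bases fall within them. Capitals mark the STAT palindrome TTCNNNGAA.
Slco1b2: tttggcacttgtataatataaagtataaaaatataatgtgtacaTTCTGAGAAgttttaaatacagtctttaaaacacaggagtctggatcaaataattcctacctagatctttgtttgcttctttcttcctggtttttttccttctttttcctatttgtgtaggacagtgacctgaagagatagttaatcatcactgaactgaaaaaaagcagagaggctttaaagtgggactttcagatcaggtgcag
Slco1a4: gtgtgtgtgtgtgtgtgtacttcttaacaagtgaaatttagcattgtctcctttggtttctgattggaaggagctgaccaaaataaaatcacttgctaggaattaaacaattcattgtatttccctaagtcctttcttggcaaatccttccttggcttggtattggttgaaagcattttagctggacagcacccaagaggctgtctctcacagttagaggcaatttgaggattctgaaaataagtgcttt
Slco1a1: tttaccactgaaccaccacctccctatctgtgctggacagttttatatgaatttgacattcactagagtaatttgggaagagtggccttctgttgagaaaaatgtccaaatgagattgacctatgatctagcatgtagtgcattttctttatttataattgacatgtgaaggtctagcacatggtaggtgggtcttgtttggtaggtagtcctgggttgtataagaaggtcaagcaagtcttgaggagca
Fgfr4: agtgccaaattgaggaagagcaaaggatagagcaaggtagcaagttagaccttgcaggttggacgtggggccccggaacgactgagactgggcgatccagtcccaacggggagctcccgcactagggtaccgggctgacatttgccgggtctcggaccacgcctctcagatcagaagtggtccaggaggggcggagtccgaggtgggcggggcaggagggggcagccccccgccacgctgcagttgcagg
Aligned end to end, these upstream stretches matched at 47.5% of alignment columns for Slco1a1 and Slco1a4, 51.4% for Slco1a1 and Slco1b2 and 50.5% for Slco1a4 and Slco1b2. Gaps were allowed and no unrelated windows were aligned beside them, so these shares do not tell whether the stretches are related.
Promoter windows from 250 bases before to 50 after the start were found for 22 of the 30 genes, 27 windows in all, and were searched on both strands. The FXR inverted repeat AGGTCANTGACCT, the direct repeat AGGTCANAGGTCA bound by HNF4A and the LRH-1 element TCAAGGTCA, which shares its last 6 bases with the first 2 motifs, had exact matches in 0 of the 27, against 0.00913%, 0.0396% and 0.423% of all 32851 windows. TTCNNNGAA occurred in 7 of the 27 windows, of 6 genes, and in 8.30% of all windows. An exact match says only that the letters are there, and a missing one only that they are not in this window.

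Slco1a4 was the only carrier past the threshold. It was at 140.1, 92.1 and 169 CPM in chow and 38.6, 57.7 and 26.3 CPM on the HFHS diet, with all 3 libraries of the latter below all of chow. The means were 134 ± 38.7 and 40.9 ± 15.8 CPM (SD, n = 3 each). The log2 fold change was -1.71 ± 0.33 (SE), a fold of 0.306 (edgeR, Benjamini-Hochberg adjusted p = 0.0204). It ranged from -2.03 to -1.48 as each library was left out, and the call was lost without chow replicate 1 (edgeR, Benjamini-Hochberg adjusted p = 0.0542), without chow replicate 3 (0.082) and under library size scaling alone (0.0509). In that fit without chow replicate 3, 6 genes in all passed. Transcripts of the related gene Slco1a5 share 2.65% of the 50-base windows of Slco1a4.

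Slco1a1, a carrier more abundant in male than in female mouse liver, spread further than any of the other 28 genes. It was at 30.8, 443 and 66.1 CPM in chow and 114, 0.885 and 323 CPM on the HFHS diet. The highest value, in chow replicate 2, was 501-fold the lowest, in HFHS replicate 2, where 23 reads were counted. Within the HFHS group the range was 365-fold and within chow 14.4-fold. Its within-diet SD of 3.44 on the log2 scale stood at percentile 99.98 of all tested genes. The diet difference was poorly determined: the log2 fold change was -0.31 with a 95% interval of -4.35 to 3.73 (edgeR, Benjamini-Hochberg adjusted p = 0.92), and 0.28 without HFHS replicate 2. Slco1b2, by contrast the most even of the 3 neighbours, was at 2055, 2133 and 1934 CPM in chow and 1592, 1349 and 2011 CPM on the HFHS diet, a log2 fold change of -0.31 ± 0.21 (SE; edgeR, Benjamini-Hochberg adjusted p = 0.358). The ratio of Slco1b2 to Slco1a1 went from 4.81 in chow replicate 2 to 1524 in HFHS replicate 2, and that of Slco1a4 to Slco1a1 from 0.0815 in HFHS replicate 3 to 65.1 in replicate 2. The mean log2 ratios of the diets differed by 1.27 and -0.14 (2-sided exact permutation p = 0.8 and p = 1, n = 3 per group), and by -1.18 and -3.01 without HFHS replicate 2.

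Slc10a1, the sodium-dependent carrier of conjugated bile acids (chromosome 12, 80953185 to 80968705), was at 751, 977 and 965 CPM in chow and 706, 272 and 737 CPM on the HFHS diet. Every HFHS library lay below every chow library, by a small margin in replicates 1 and 3 and by a wide one in replicate 2. The log2 fold change was -0.65 ± 0.37 (SE; edgeR, Benjamini-Hochberg adjusted p = 0.265) and -0.31 without replicate 2. Slco2b1, a further organic anion carrier, was at 247, 219 and 246 CPM in chow and 212, 121 and 209 CPM on the HFHS diet, with the diets separated and a log2 fold change of -0.39 ± 0.22 (SE; edgeR, Benjamini-Hochberg adjusted p = 0.269). Slc10a2, the carrier of ileum and bile ducts, was at 101, 20.4 and 49.5 CPM in chow and 74.3, 30.02 and 43.5 CPM on the HFHS diet, with every HFHS value inside the chow range. A log2 fold change of -0.21 ± 0.60 (SE) was 0.066 without HFHS replicate 2. The summed level of 8 cholangiocyte markers over the same libraries was 45.4, 45.3 and 26.9 CPM in chow and 209, 294 and 176 CPM on the HFHS diet, of which Spp1 alone made up 39.5, 34.3 and 18.3 and 190.1, 264 and 161 CPM.

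**Figure D4:**
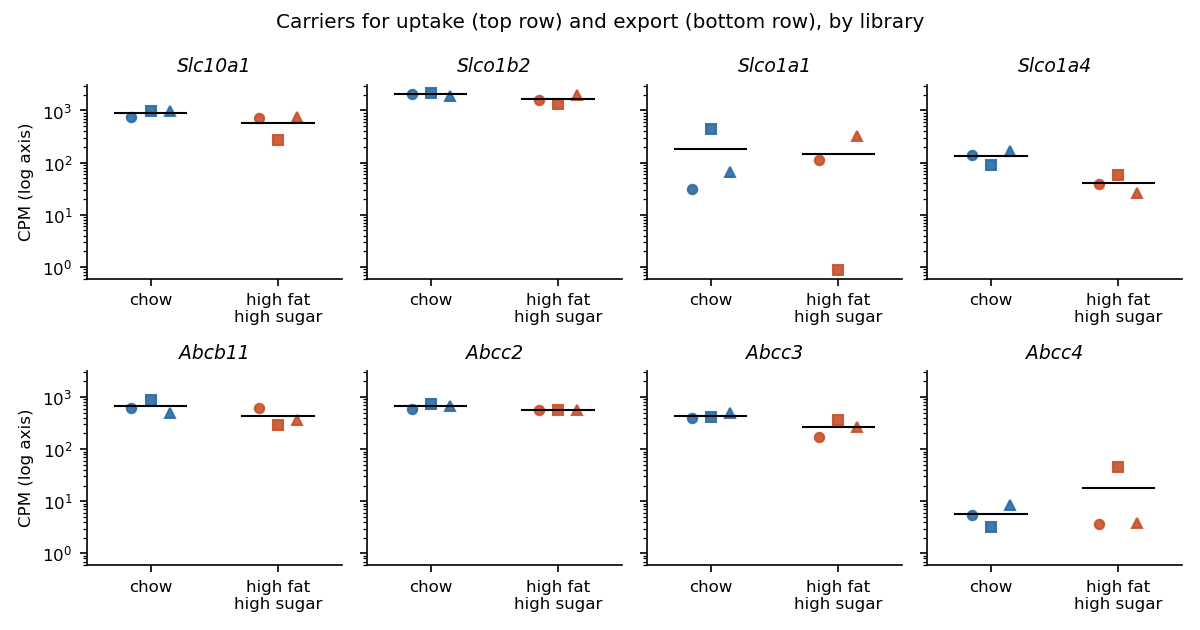
CPM of 8 carriers in each library on a log axis, with a bar at each group's mean; circles, squares and triangles are replicates 1, 2 and 3. Slco1a4 is lower in all 3 HFHS libraries, Slco1a1 spreads over both diets, and Abcc4 is high in HFHS replicate 2 alone.

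At the canalicular membrane, which faces bile, 0 of 5 genes passed with edgeR, DESeq2 or limma-voom, and edgeR had 0 at an unadjusted p under 0.05. Abcb11, the bile salt export pump (chromosome 2, 69238282 to 69342616), was at 614, 876 and 498 CPM in chow and 627, 289 and 359 CPM on the HFHS diet, where replicate 1 lay within the chow range and replicates 2 and 3 below it. Its log2 fold change was -0.64 ± 0.34 (SE; edgeR, Benjamini-Hochberg adjusted p = 0.234). Abcc2, which exports conjugated anions, was at 581, 749 and 664 CPM in chow and 573, 557 and 555 CPM on the HFHS diet, a log2 fold change of -0.24 ± 0.17 (SE) that was 0.022 with library size only. Abcb4, which flops phosphatidylcholine into bile, was at 289, 307 and 286 CPM in chow and 284, 312 and 375 CPM on the HFHS diet, and the 95% interval of its log2 fold change was -0.22 to 0.50. Atp8b1, a phospholipid flippase of this membrane, was at 32.5, 42.1 and 40.6 CPM in chow and 54.6, 46.3 and 43.1 CPM on the HFHS diet and was the gene whose HFHS libraries all lay above chow. Its log2 fold change was 0.32 ± 0.14 (SE; edgeR, Benjamini-Hochberg adjusted p = 0.163) and passed with library size only (0.59, edgeR, Benjamini-Hochberg adjusted p = 0.048). Abcb1a, a multidrug pump, was at 22.6, 5.11 and 22.1 CPM in chow and 17.5, 37.8 and 15.0 CPM on the HFHS diet, lowest in chow replicate 2 and highest in HFHS replicate 2. A log2 fold change of 0.50 ± 0.61 (SE) was -0.018 without the latter. Its close relative Abcb1b shares 15.5% of its 50-base windows, so its count is less certain.

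Of the basolateral pumps, which send bile acids back to blood, Abcc3 (chromosome 11, 94343295 to 94393017) was at 391, 416 and 496 CPM in chow and 171, 362 and 269.6 CPM on the HFHS diet, with the diets separated. The log2 fold change of -0.70 ± 0.27 (SE; edgeR, Benjamini-Hochberg adjusted p = 0.121) became -0.97 ± 0.22 and passed without HFHS replicate 2 (adjusted p = 0.0281), which had the highest Abcc3 of its group. The ratio of Abcc3 to the canalicular pump Abcc2 was 0.673, 0.555 and 0.747 in chow and 0.298, 0.649 and 0.486 on the HFHS diet (2-sided exact permutation p = 0.2, n = 3 per group, adjusted p = 0.7). Abcc4, another basolateral pump (chromosome 14, 118482692 to 118707856), was at 5.51, 3.24 and 8.42 CPM in chow and 3.62, 45.7 and 3.85 CPM on the HFHS diet. A single library was high: replicate 2 of the HFHS group held 1187 reads, and the other 5 libraries 59 to 125. The log2 fold change was 1.65 ± 1.07 (SE; edgeR, Benjamini-Hochberg adjusted p = 0.339) with that library and -0.60 without it. The ratio of Abcc4 to Abcb11 was 0.00896, 0.00371 and 0.0169 in chow and 0.00577, 0.158 and 0.0107 on the HFHS diet, and the mean log2 difference of 1.37 was -0.069 without replicate 2 (2-sided exact permutation p = 0.6 with all libraries, n = 3 per group). Slc51b was at 1.22, 0.495 and 0.202 CPM in chow and 3.05, 1.89 and 0.838 CPM on the HFHS diet, from 22, 9 and 3 reads and 59, 49 and 15 reads. HFHS replicate 3 lay below chow replicate 1, and the log2 fold change of 1.55 ± 0.66 (SE) did not pass (edgeR, Benjamini-Hochberg adjusted p = 0.154). Its exons overlap those of Rasl12 on the other strand by 91 bases, and reads there could belong to either gene if strand was not used in counting.

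Fgfr4, the receptor through which the gut hormone FGF15 holds down Cyp7a1 (chromosome 13, 55152818 to 55168759), fell by a small and even amount. It was at 41.3, 45.5 and 47.3 CPM in chow and 32.9, 30.4 and 30.1 CPM on the HFHS diet, with means of 44.7 ± 3.05 and 31.1 ± 1.52 (SD, n = 3 each). The groups were separated and each kept a narrow range, with a within-diet SD at percentile 7.25 of all tested genes. That is a log2 fold change of -0.52 ± 0.10 (SE), a fold of 0.696 (edgeR, Benjamini-Hochberg adjusted p = 0.019). The call was lost without chow replicate 2 (-0.52, edgeR, Benjamini-Hochberg adjusted p = 0.0639), without chow replicate 3 (-0.49, 0.0905) and under library size scaling alone (-0.26, 0.231). Klb, the co-receptor beta-klotho, was at 28.5, 43.2 and 27.5 CPM in chow and 33.6, 28.1 and 31.2 CPM on the HFHS diet. Its diets overlapped, and the 95% interval of its log2 fold change ran from -0.53 to 0.34. The hormone gene Fgf15 had 0 counts in all 6 libraries; it is made in the ileum.

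Among 13 tested regulators of bile acid genes 2 fell, Nr5a2, which encodes LRH-1, an activator of Cyp7a1 and Cyp8b1 (-0.42 ± 0.10 on the log2 scale, SE), and the repressor Mafg (-0.48 ± 0.12), with edgeR and Benjamini-Hochberg adjusted p = 0.0348 and 0.0391. Of all genes 3.61% were called lower. All 13 had a fold change below 0, against 52.3% of all genes, with a median of -0.42. With library size only 10 did, where 2991 of all 12949 genes were below 0. In that setting 0 of the 13 passed, and 1.54% of all genes were called lower. Nr5a2 passed without HFHS replicate 3 and lost the call without each other library in turn, with edgeR and Benjamini-Hochberg adjusted p from 0.068 to 0.138. Mafg passed without chow replicate 1 and lost it without each other library, from 0.051 to 0.145. With upper-quartile scaling neither passed (0.0577 and 0.0772). The bile acid receptor gene Nr1h4, which encodes FXR, was at 165, 197 and 202 CPM in chow and 151, 164 and 174 CPM on the HFHS diet, which overlapped. Its target Nr0b2, which encodes the repressor SHP, was at 17.4, 40.9 and 32.3 CPM in chow and 13.5, 18.7 and 27.3 CPM on the HFHS diet (-0.60 ± 0.36 on the log2 scale, edgeR, Benjamini-Hochberg adjusted p = 0.294). The liver regulator Hnf4a had the next smallest p, at -0.56 ± 0.17 (edgeR, Benjamini-Hochberg adjusted p = 0.067).

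Of 22 other tested enzymes and carriers of bile acid metabolism 1 fell and 0 rose with edgeR, against 3.61% and 11.0% of all genes. Of the 22, 17 had a fold change below 0, against 52.3%. With library size only 12 did, where 2991 of all 12949 genes were below 0. At an unadjusted p under 0.05 edgeR had 0 higher and 4 lower (12.8% of all genes), DESeq2 called 0 higher and 3 lower (7.52% of all genes), and limma-voom 0 and 1 (2.86%). Cyp3a11, a hydroxylase that clears bile acids and drugs, was at 5220.0, 6024 and 5257 CPM in chow and 1694, 1689 and 1243 CPM on the HFHS diet. Its log2 fold change was -1.83 ± 0.23 (SE; edgeR, Benjamini-Hochberg adjusted p = 0.00867), and the call was lost without chow replicate 3 (0.0575). The next smallest p-values were those of the glucuronosyltransferase Ugt1a1 (-0.62, adjusted p = 0.082) and Aldh8a1 (-0.59, adjusted p = 0.0886). Cyp2c70, which makes the muricholic acids of mice, was at 647, 593 and 522 CPM in chow and 628, 359.8 and 427 CPM on the HFHS diet, and the peroxisomal importer Abcd3 at 985, 945 and 1013 and 1313, 485 and 881 CPM. Both overlapped between diets. A further list of 12 genes was drawn up around the canalicular membrane, and not all of them are confined to it. Of these 2 rose, where 11.0% of all genes did, and 0 fell, with 2 lower at an unadjusted p under 0.05. DESeq2 called 2 higher and 2 lower there, and limma-voom 2 and 0. Those that rose with edgeR were the membrane linker Ezr (1.24 ± 0.25 on the log2 scale, SE) and the sterol half-transporter Abcg5 (0.81 ± 0.20; edgeR, Benjamini-Hochberg adjusted p = 0.0209 and 0.0379). Rdx, the main membrane linker of the canaliculus, had the third smallest p there and did not pass (-0.52 ± 0.15, edgeR, Benjamini-Hochberg adjusted p = 0.0514). Abcg5 passed only without HFHS replicate 2 and Ezr only without each HFHS library when a library was left out, so both lost the call without each chow library in turn.

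The libraries that set the widest ranges also differed in genes with a sex bias in mouse liver, a programme driven by the pattern of growth hormone. Relative to the 6-library mean, the median of 13 tested male-biased genes was -0.33, 1.79 and 0.48 on the log2 scale in chow replicates 1, 2 and 3 and 0.03, -2.86 and 0.86 in HFHS replicates 1, 2 and 3. That of 9 tested female-biased genes was 0.52, -1.65 and 0.35 in chow and -0.80, 0.98 and 0.57 on the HFHS diet. By diet, 1 of the 13 male-biased genes fell (Susd4), and of the 9 female-biased genes 1 rose (Ntrk2) and 1 fell (Cyp2b10), all with edgeR. Of all tested genes 3.61% were called lower and 11.0% higher. Ntrk2 was not called without HFHS replicate 2. Chow replicate 2, with the most Slco1a1 and Cyp7b1 and the least Abcb1a, had the highest median of the male-biased and the lowest of the female-biased genes. By summed level the male-biased genes were higher in HFHS replicates 1 and 3 (12244 and 9422 CPM) than in chow replicate 2 (8126 CPM). HFHS replicate 2, with the least Slco1a1, Cyp7b1 and Cyp8b1 and the most Abcc4 and Abcb1a, was the lowest in the male-biased and highest in the female-biased genes. Slco1a4, a carrier of higher level in female mice, was likewise lowest of chow in replicate 2 and highest of the HFHS group in replicate 2, and its diets were separated, which those of the female-biased median were not. HFHS replicate 2 also had the highest summed cholangiocyte markers, given above, and the highest summed macrophage markers, at 666, 1012 and 626 CPM in HFHS replicates 1, 2 and 3 against 304, 214 and 270.3 CPM in chow. The part of these differences in the carriers' values was not tested. The members named here were chosen after their values were seen.

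**Figure D5:**
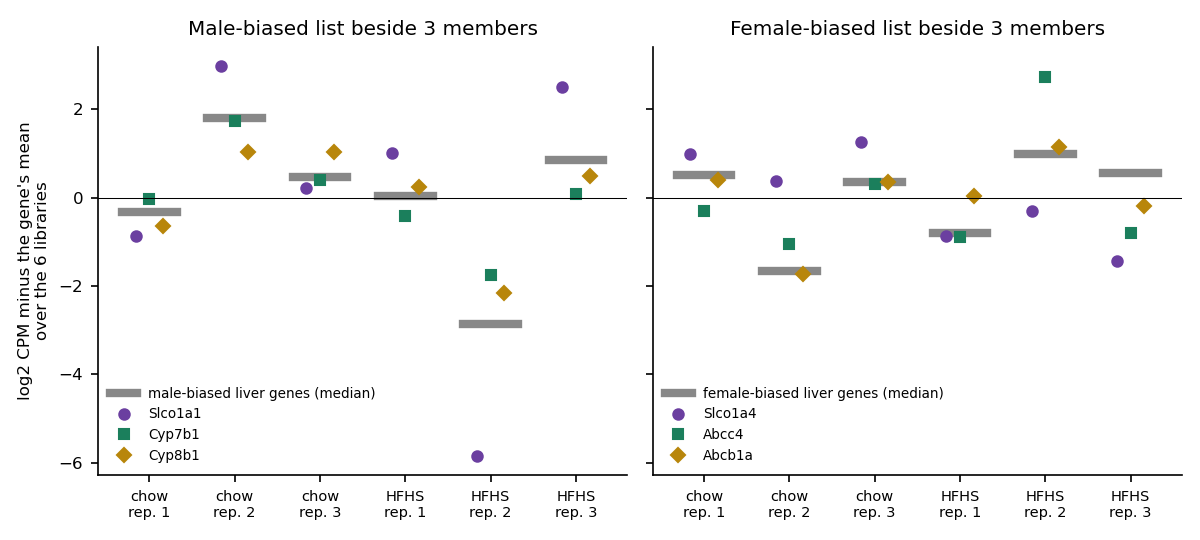
Log2 CPM of 6 bile acid genes minus the gene's mean over the 6 libraries (points), beside the median of the male-biased (left) and female-biased (right) list (grey bars); HFHS is the high fat high sugar diet. Chow replicate 2 and HFHS replicate 2 lie at opposite ends for both lists, and every chow point of Slco1a4 lies above its HFHS points.

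The within-diet SD of log2 CPM had a median of 0.41 over the 29 genes, at a median percentile of 79.0, against 0.22 over all tested genes and 0.24 over the 10 hepatocyte markers. Some marker lists were as wide or wider: 0.41 for the macrophage and 0.62 for the cholangiocyte markers, beside 0.37 for the stellate cell markers and 0.29 for the 22 other bile acid enzymes and carriers. By role, the basolateral genes and the classic pathway were the widest, with medians of 0.97 and 0.86, and the canalicular genes and the FGF receptor pair the most even, with 0.19 and 0.18. These medians cover few genes each. The canalicular genes ran from percentile 21.4 (Abcc2) to 98.0 (Abcb1a), and the receptor pair stood at 7.25 (Fgfr4) and 62.1 (Klb). The basolateral median was the value of Slc51b, which had 3 to 59 reads per library. The 7 highest percentiles were those of Slco1a1, Abcc4 (99.6), Cyp8b1 (99.1), Abcb1a (98.0), Slc51b (97.9), Slc10a2 (97.6) and Cyp7b1 (97.6), and the lowest were those of Fgfr4 and Akr1c6 (14.4).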

How the data were processed

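Liver polyA RNA of 3 chow and 3 high fat high sugar samples was sequenced from strand-marking libraries, per the labels' protocols. Reads were aligned with STAR to mm10, per the submitters' processing notes; the counting program, annotation, strand setting and treatment of shared reads were not given in the sources used here. Deposited files hold raw whole-number read counts per gene, with no normalisation. Reads outside genes (7.74% to 10.6% of each table) and reads that fitted several genes (0.615% to 0.862%) entered neither library sizes nor tests.

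Samples were grouped by title. No pair of replicates was a copy (chi-square per gene at least 23.5). Genes passing filterByExpr (minimum count 10) were scaled by TMM and tested with edgeR 4.0.16 (robust quasi-likelihood, no covariate, R 4.3.3), with Benjamini-Hochberg adjustment over 12949 genes and a threshold of 0.05. The SE is the log2 fold change over the square root of F. DESeq2 1.42.0, limma-voom (limma 3.58.1), other scalings, no filter, no robust estimation, a replicate block and each library left out were alternatives, and the fits were tested on simulated data. Log2 levels used a prior count of 2. Floors cover counting error only. Ratios within libraries used exact permutation tests. The 30 genes were all named by rule, and the gene lists and roles were chosen with earlier results of these data known. From each bile acid list beside them the 3 smallest p were named, and Nr1h4, Nr0b2, Cyp2c70 and Abcd3 whatever their value. Of the lists' symbols 1, Stard1, had no row under that name. Gene spans and promoters are from RefSeq (GRCm38.p6, the assembly of mm10), exon lengths and transcripts from GENCODE M21, which may differ from the authors' annotation.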

Additional observations from a re-analysis of the deposited data

How the results depend on the processing

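Of the 29 tested genes 19 kept the sign of their fold change in all 14 alternatives and 10 did not. Called lower among the 29 were 1 with library size only, 6 with DESeq2 (Cyp27a1, Akr1d1, Slc27a5, Baat, Slco1a4 and Fgfr4) and 0 to 4 as each library was left out; called higher was 1 with library size only (Atp8b1). Over all genes, lower calls came to 200 with library size only and 974 with DESeq2, and to 2 to 772 as each library was left out, with higher calls from 4 to 1664. With library size only, log2 fold changes turned to 0.12 for Acox2, 0.11 for Hsd17b4, 0.10 for Scp2, 0.035 for Slc10a2, 0.022 for Abcc2 and 0.16 for Klb. With each library left out, they ran from -0.50 to 0.10 for Cyp7a1, -0.31 to 0.046 for Hsd17b4, -0.42 to 0.17 for Scp2, -0.63 to 0.49 for Slc10a2, -1.66 to 1.58 for Slco1a1, -0.018 to 0.79 for Abcb1a, -0.60 to 2.12 for Abcc4 and -0.22 to 0.14 for Klb. Differences in log2 ratio ran from -1.23 to 0.13 for Cyp8b1 to Cyp7a1, -3.01 to 1.81 for Slco1a4 to Slco1a1, -1.18 to 2.79 for Slco1b2 to Slco1a1 and -0.069 to 2.32 for Abcc4 to Abcb11. The cause of these shifts was not tested beyond the library or scaling changed. Same-numbered libraries of the 2 diets did not deviate together (correlations of -0.25, -0.17 and 0.03), so the numbers pair nothing. With the replicate block edgeR called 282 genes lower, 961 higher, and among the 29 genes 1 lower (Slc27a5, adjusted p = 0.0389) and 1 higher (Slc51b, adjusted p = 0.0436), with Slco1a1 at 0.48, while Slco1a4 (-1.74, adjusted p = 0.0765) and Fgfr4 (-0.52, 0.057) did not pass; no library correlated best with its own number. Depth limits Slc51b and Slco1a1 in high fat high sugar replicate 2 most.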
